A study of Mus musculus with 5 samples.

Results

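The NF-κB system of mouse lung group 2 innate lymphoid cells (ILC2s) was followed through 10 genes. The 5 subunit genes of the transcription factor were *Nfkb1*, *Nfkb2*, *Rel*, *Rela* and *Relb*, and the 5 inhibitor genes were *Nfkbia*, *Nfkbib*, *Nfkbie*, *Nfkbiz* and *Tnfaip3*. They were chosen as a list of symbols, with no threshold on their values, and are 10 of the 27726 genes shared by the 5 deposited matrices. All 10 were detected in all 5 libraries.

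NF-κB dimers are kept in the cytoplasm by IκB proteins until a receptor signal activates the IκB kinase, the IκB protein is degraded and the dimer enters the nucleus. The genes of several inhibitors are themselves NF-κB targets, so their transcripts are part of a feedback loop. In ILC2s the IL-33 receptor ST2, encoded by *Il1rl1*, signals through MyD88 to NF-κB, and *Il13* (IL-13) and *Csf2* (GM-CSF) are among the cytokine genes that IL-33 induces. Their transcripts were taken here as the readout of that signal in each cell, and how closely they follow it was not tested.

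RNA of single cells was measured with a 10x Genomics 3' kit in 5 libraries of wild type C57BL/6 mice, which the study's methods give as females of 4 to 8 weeks, with cells of 5 mice pooled in each. The naïve library held freshly isolated ILC2s of mice without tumour. The ta-non-activated libraries, called fresh here and taken in weeks 2 and 3, held ILC2s isolated from mice that carried TC1 tumour cells under the skin. The ta-activated libraries, called cultured here, came from the same weeks and held such ILC2s after a week in medium with TSLP, rmIL-33 and rhIL-2. All cells had been sorted as ST2+ CD127+ Thy1.2+ CD45+ cells negative for lineage antibodies, CD3 among them. The tumour lay under the skin and the cells came from the lung, and a week of culture cannot be told apart from the cytokines added during it.

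A barcode was kept with 200 or more genes and a mitochondrial share under 5%, which left between 1601 and 6389 cells a library, and the libraries differed in more than their labels. The kept cells summed to between 9394957 and 61830293 UMIs, with medians between 4396 and 16090 UMIs a cell, and any pair of libraries shared at most 8 barcodes. All 10 ILC2 marker genes were detected in each library, with summed levels between 1772 and 8343 CPM, a gene's share of the UMIs of a library on the usual CPM scale. Epithelial markers summed to 284 CPM in the naïve library and 2.02 to 80.6 CPM in the others. Endothelial markers summed to 88.2 CPM in the naïve library against 11.1 to 38.6 CPM. Mast cell or basophil markers summed to 121 CPM in the cultured week 2 library against 0 to 82.3 CPM. That sum came from *Cpa3* and *Mcpt8*, and the third marker, *Fcer1a*, had no UMI in the cultured week 2 library. In the fresh week 3 library, 850 of 1601 cells (53.1%) carried at least 2 UMIs of the CD3 chain genes *Cd3d* and *Cd3e* together, against 1.10% to 7.45% of cells in the other 4. The T cell markers summed to 1269.5 CPM there, with all 7 detected, against 5.81 to 182 CPM in the others. Levels, changes and correlations that rest on that library are therefore also given without these Cd3d/Cd3e-positive cells, whose removal left 751 cells, an ILC2 marker sum of 5171 CPM and a T cell marker sum of 70.4 CPM with *Cd4*, *Cd8a* and *Cd8b1* at 0. The fresh libraries also stood apart from each other. Genes of the immediate early and stress response summed to 2561 CPM in week 2 and 10779 CPM in week 3, beside 10626 CPM in the naïve library and 2380 and 2361 CPM in the cultured ones. *Il13* was at 8861 CPM fresh in week 2, 19.6 CPM fresh in week 3 (78.05 CPM without the Cd3d/Cd3e-positive cells), 55.6 CPM in the naïve library, and 3501 and 4318 CPM cultured in weeks 2 and 3. *Csf2* was at 1432, 31.6 (118), 356, 59.98 and 183 CPM in the same order. The cultured libraries, which had received rmIL-33, were thus above the naïve one in *Il13* and below it in *Csf2*. These readouts therefore did not share an order of libraries. By *Il13* and the stress genes the fresh week 2 library lay nearer to the cultured libraries than to the naïve one, and the fresh week 3 library the other way round.

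Promoters are shown first, since several of these genes are themselves known targets of NF-κB. RefSeq gene starts on GRCm38.p6 were available for 7 of the 10 members, all but *Nfkb1*, *Relb* and *Nfkbiz*. The 250 bases before each start were searched on both strands for the κB consensus, a 10-base motif, with no other motif searched. It was present in at least 1 window of *Nfkbia*, *Tnfaip3*, *Nfkbie*, *Rel* and *Nfkb2* and was not found in the windows of *Rela* and *Nfkbib*, so 5 of 7 members had it against 8.23% of all 27025 genes in the table. The windows of *Nfkbia* (chr12:55492648-55492897), *Rel* (chr11:23770970-23771219) and *Rela* (chr19:5637291-5637540), and the first of 2 windows of *Tnfaip3* (chr10:19015411-19015660) and the first of 3 windows of *Nfkb2* (chr19:46304487-46304736), are given 5′ to 3′ on the strand of the gene, plus for *Rela* and *Nfkb2* and minus for the other three, with the bases that match the consensus in capitals.
Nfkbia: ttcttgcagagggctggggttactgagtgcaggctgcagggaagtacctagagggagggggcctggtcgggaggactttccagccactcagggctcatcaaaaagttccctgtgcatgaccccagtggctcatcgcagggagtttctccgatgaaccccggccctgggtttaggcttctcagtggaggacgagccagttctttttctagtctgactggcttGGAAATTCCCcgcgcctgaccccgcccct
Tnfaip3: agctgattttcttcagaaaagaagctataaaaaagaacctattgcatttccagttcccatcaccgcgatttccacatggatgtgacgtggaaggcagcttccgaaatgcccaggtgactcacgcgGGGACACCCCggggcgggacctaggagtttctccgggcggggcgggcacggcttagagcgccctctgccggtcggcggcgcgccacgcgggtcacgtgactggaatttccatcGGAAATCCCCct
Rel: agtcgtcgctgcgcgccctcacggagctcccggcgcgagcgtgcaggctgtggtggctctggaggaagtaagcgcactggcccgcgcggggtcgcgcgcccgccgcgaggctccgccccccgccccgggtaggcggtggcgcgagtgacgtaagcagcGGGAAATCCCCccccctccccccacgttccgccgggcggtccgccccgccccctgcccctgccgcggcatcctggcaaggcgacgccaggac
Nfkb2: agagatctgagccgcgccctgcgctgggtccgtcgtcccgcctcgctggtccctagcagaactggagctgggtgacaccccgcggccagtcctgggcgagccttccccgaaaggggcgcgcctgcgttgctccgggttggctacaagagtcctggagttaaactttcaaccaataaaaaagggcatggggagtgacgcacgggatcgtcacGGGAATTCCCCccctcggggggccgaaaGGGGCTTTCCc
Rela: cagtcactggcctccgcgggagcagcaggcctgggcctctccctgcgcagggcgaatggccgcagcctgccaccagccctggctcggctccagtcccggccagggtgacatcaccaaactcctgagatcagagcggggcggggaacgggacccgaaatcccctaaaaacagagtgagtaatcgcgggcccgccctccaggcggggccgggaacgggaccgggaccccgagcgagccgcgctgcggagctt
Distances are to the RefSeq start, which for *Tnfaip3*, *Rel*, *Nfkb2*, *Rela* and *Nfkbib* lies inside the gene coordinates given below. The match of *Nfkbia* began 29 bases before its start. *Tnfaip3* had matches at 125 and 12 bases, *Rel* a run of overlapping matches at 92 bases, and *Nfkb2* a run at 39 bases and a match at 11 bases. The second window of *Tnfaip3* (chr10:19011964-19012213) held no match, and the other 2 windows of *Nfkb2* held 1 each. A match is a stretch of letters and not evidence of binding, and binding was not measured.

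Among the subunits, *Nfkb1* and *Rel* had their highest level in the naïve library by a wide margin. *Nfkb1* (chr3:135584655-135691547, minus strand), which encodes the precursor of the usual partner of RelA, was at 3310.1 CPM (95% interval 3290.3 to 3330.0) in the naïve library, 229 and 176 CPM in the fresh libraries of weeks 2 and 3, and 127 and 198 CPM in the cultured ones. *Rel* (chr11:23736847-23770970, minus strand), the c-Rel subunit of lymphocytes, was at 282 CPM (95% interval 276 to 288), then 45.7 and 51.2 CPM, then 25.6 and 65.6 CPM in the same order. For both genes the naïve level was more than 4 times any other, and without the Cd3d/Cd3e-positive cells the fresh week 3 level came second, at 549.7 CPM for *Nfkb1* and 128 CPM for *Rel*. The intervals are exact Poisson intervals and cover counting error only, not the spread between mice, and in such sums fewer cells with a transcript and less RNA in each cell cannot be told apart.

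The subunits of the alternative pathway had another order. *Nfkb2* (chr19:46304320-46312385, plus strand) encodes the precursor that partners RelB, and was at 39.2 CPM in the naïve library, 100.1 CPM (95% interval 96.7 to 104) and 18.6 CPM in the fresh libraries, and 31.1 and 110.3 CPM (95% interval 108 to 113) in the cultured ones. *Relb* (chr7:19606217-19629438, minus strand) was at 119 CPM, then 86.8 and 18.6 CPM, then 30.8 and 94.3 CPM. In both genes the fresh week 2 and cultured week 3 libraries were high and the other 2 tumour libraries low, and the low fresh week 3 values became 45.2 CPM for *Nfkb2* and 60.1 CPM for *Relb* without the Cd3d/Cd3e-positive cells. *Rela* (chr19:5637483-5648130, plus strand), the transactivating subunit of the classical pathway, varied least of the 10 members, at 47.04, 36.2, 29.4, 36.6 and 60.8 CPM in the same order of libraries. Its highest level was 2.07 times its lowest, and 1.67 times without the Cd3d/Cd3e-positive cells, where its fresh week 3 level was 43.5 CPM and the intervals of each pair of neighbours among the 4 lower libraries overlapped.

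Of the inhibitors, *Nfkbiz* and *Tnfaip3* were the members with the widest range. *Tnfaip3* (chr10:19000910-19015657, minus strand), a ubiquitin-editing enzyme that shuts down receptor signalling, was at 1205 CPM (95% interval 1193 to 1217) in the naïve library, 32.6 and 248 CPM in the fresh libraries, and 35.9 and 50.5 CPM in the cultured ones. *Nfkbiz* (chr16:55811375-55838899, minus strand), an atypical nuclear IκB, was at 758 CPM (95% interval 748 to 767), 26.1, 82.8, 28.7 and 49.7 CPM. The order was the same in both, naïve first, fresh week 3 next, and the fresh week 2 library lowest with an interval that overlapped that of the cultured week 2 one. Their fresh week 3 levels were 637 and 278 CPM without the Cd3d/Cd3e-positive cells, and the order held.

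*Nfkbia* (chr12:55489410-55492647, minus strand), the classical IκBα, was at 1494 CPM (95% interval 1480.3 to 1507) in the naïve library, 699 and 523 CPM in the fresh libraries, and 313 and 862 CPM in the cultured ones. Removing the Cd3d/Cd3e-positive cells moved its fresh week 3 level to 1889 CPM (95% interval 1834 to 1946), the highest of the 5 libraries. As a mean over cells, which weights each cell alike, it was 908 CPM there and 754 CPM in the fresh week 2 library, the reverse of their order in summed counts. *Nfkbib* (chr7:28758251-28767512, minus strand), which encodes IκBβ, peaked in the fresh week 2 library at 127 CPM, with 41.8 CPM in the naïve library, 33.3 CPM in week 3 and 46.96 and 72.6 CPM in culture. *Nfkbie* (chr17:45555703-45563169, plus strand), which encodes IκBε, stayed between 15.2 CPM in the cultured week 2 library and 41.7 CPM in the fresh week 3 one, with 28.8, 35.3 and 34.3 CPM in the naïve, fresh week 2 and cultured week 3 libraries. The fresh week 3 levels of *Nfkbib* and *Nfkbie* were 47.3 and 54.2 CPM when the Cd3d/Cd3e-positive cells were left out. The inhibitors thus did not share an order of libraries.

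**Figure D1:**
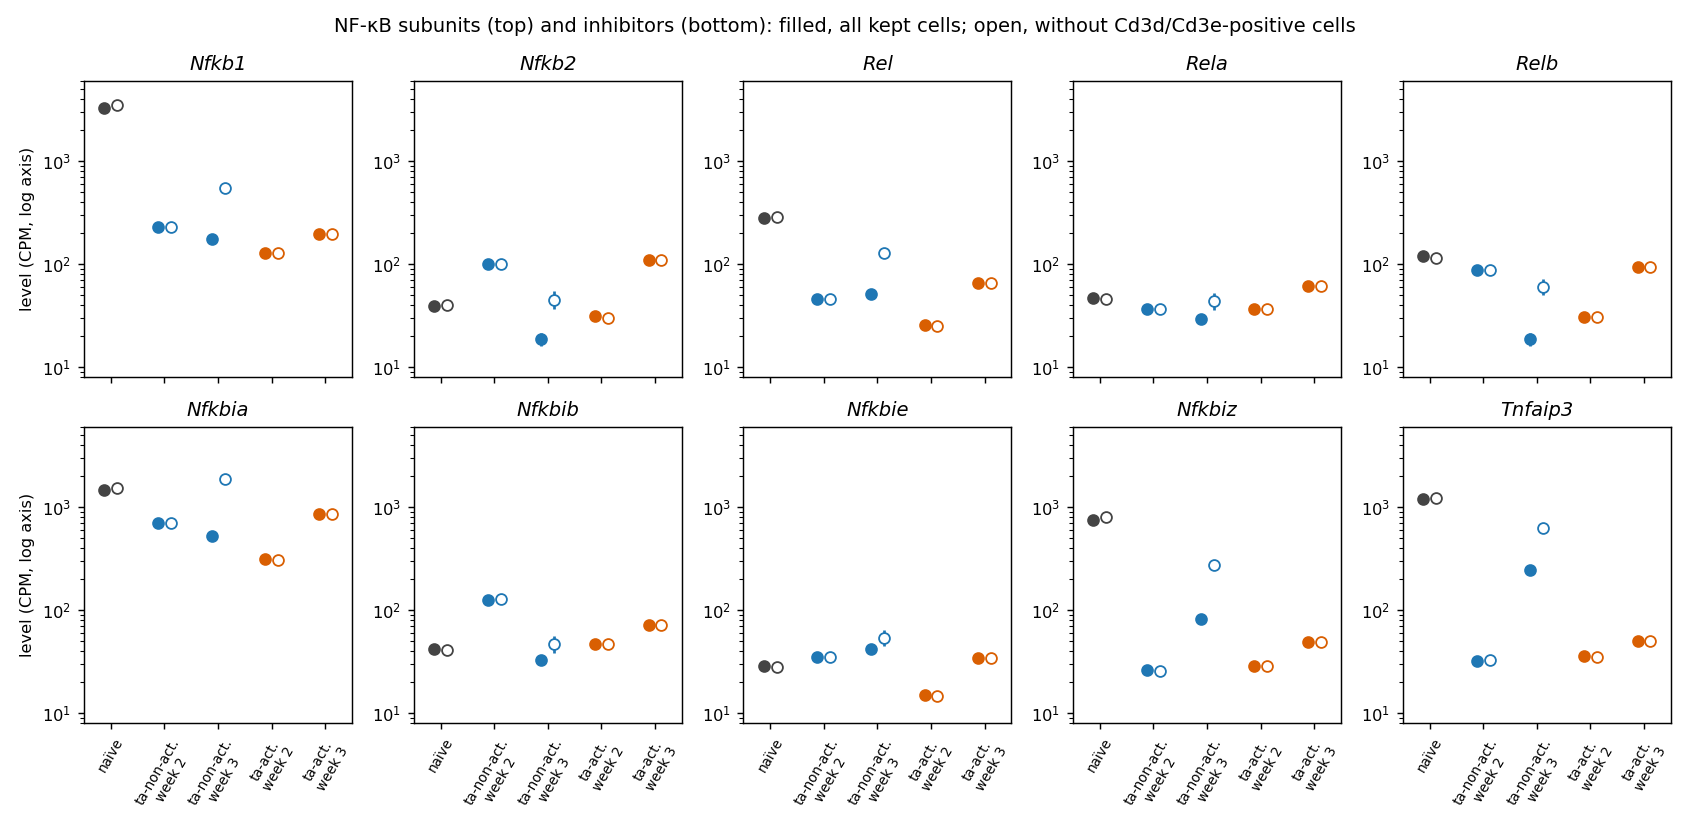
Level of each subunit (top) and inhibitor (bottom) per library in CPM on a log axis, with exact Poisson 95% intervals that cover counting error only. Filled points are all kept cells and open points the cells without the Cd3d/Cd3e-positive ones, and the 2 differ visibly in the fresh week 3 library, where *Nfkbia* goes from 523 to 1889 CPM.

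The question of what a tumour changes in freshly isolated ILC2s sets each fresh library against the single naïve one, so it has no replicate check and no test. In week 2, 5 of 10 members were at least 2-fold lower than in the naïve library (*Nfkb1*, *Rel*, *Nfkbia*, *Nfkbiz* and *Tnfaip3*) and 2 at least 2-fold higher (*Nfkb2* and *Nfkbib*), where 33.1% of the 5724 genes compared were lower and 24.7% higher by as much. The ratio to the naïve level was 0.02704 (95% interval 0.0255 to 0.0287) for *Tnfaip3*, 0.0344 for *Nfkbiz*, 0.0692 for *Nfkb1*, 0.162 for *Rel* and 0.468 for *Nfkbia*, against 2.56 for *Nfkb2* and 3.05 for *Nfkbib*. The median log2 ratio of the members was -0.77, and that of all genes compared -0.11. In week 3, 7 of 10 members were at least 2-fold lower and 0 higher, beside 28.4% and 19.9% of genes. Without the Cd3d/Cd3e-positive cells 3 of 10 were lower (*Nfkb1*, *Rel* and *Nfkbiz*) and 0 higher, beside 25.2% and 4.08% of genes, with ratios of 0.158, 0.443 and 0.348. The members' median log2 ratio moved from -1.90 to -0.51 with that removal, and the ratio of *Nfkbia* from 0.3503 to 1.22. *Tnfaip3* then stood at 0.513 of the naïve level, just inside the 2-fold limit.

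The naïve library held more transcripts of genes with long introns as a class, and the members differ in intron length, so each ratio was set beside genes of like length. Intron length in GENCODE M21 (GRCm38) ran from 1.63 kb in *Nfkbia* to 94.8 kb in *Nfkb1*. Across genes, which are not independent replicates, its Spearman correlation with the naïve over ta-non-activated log2 ratio was 0.58 in week 2 and 0.71 in week 3 without the Cd3d/Cd3e-positive cells. *Nfkb1* fell in the quartile of genes with the longest introns. Its ratio of 14.5 in week 2 was above that of 82.4% of that quartile, whose median ratio was 4.203, and its ratio of 6.34 in week 3 was above 84.7%. *Tnfaip3* and *Nfkbiz* stood further out among genes of like length. Their week 2 ratios of 36.98 and 29.04 were above 99.4% and 99.02% of their quartiles, and their week 3 ratios of 1.95 and 2.87 above 94.8% and 98.5%. *Nfkbia*, with the shortest introns, had ratios of 2.14 and 0.821, so without the Cd3d/Cd3e-positive cells the naïve library was the higher one only against week 2. With all kept cells it was the higher one against both weeks, the fresh week 3 level being 0.3503 of the naïve one. The part of intron length, of the counting software (another Cell Ranger version in the naïve file) and of the stress genes named above in the naïve levels was not tested.

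**Figure D2:**
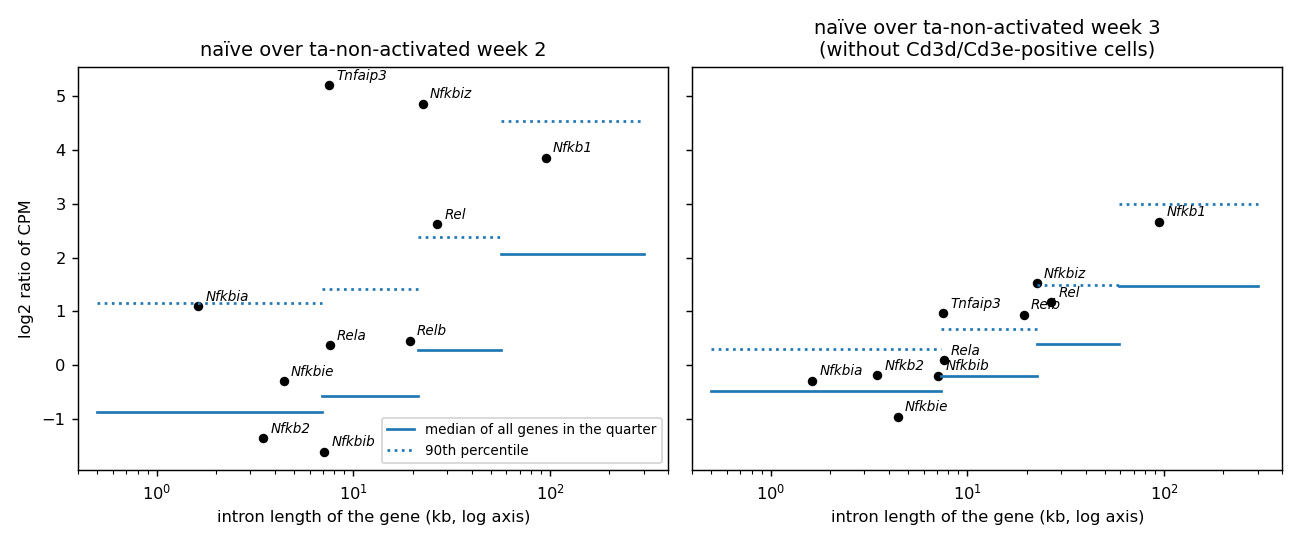
Log2 ratio of naïve over ta-non-activated CPM against the intron length of the gene (kb, log axis) for the 10 members (points), with week 2 on the left and week 3 without the Cd3d/Cd3e-positive cells on the right. Blue lines give the median (solid) and 90th percentile (dotted) of all genes in each quartile of intron length, and *Tnfaip3* and *Nfkbiz* lie above the dotted line of their quartile on both sides.

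Within the fresh week 3 library itself, the members separated the 751 cells with fewer than 2 *Cd3d* and *Cd3e* UMIs from the 850 with more. All 10 members were higher in the former, 7 of them at least 2-fold, where 12.3% of 5263 genes were at least 2-fold higher and 19.3% at least 2-fold lower, and the median ratio of all genes was 0.836. *Nfkbia* was at 1889 CPM in the 751 cells and 68.9 CPM in the 850, a ratio of 27.4 (95% interval 24.96 to 30.1). The ratio was 15.7 for *Nfkbiz*, 12.5 for *Relb*, 10.7 for *Nfkb1*, 5.39 for *Tnfaip3*, 4.98 for *Rel* and 4.62 for *Nfkb2*. *Rela*, *Nfkbib* and *Nfkbie* differed least, with ratios of 1.76, 1.65 and 1.44. In the naïve library, where 476 cells were Cd3d/Cd3e-positive, the same ratio was 1.73 for *Nfkbia*, 2.402 for *Nfkb1* and 0.728 for *Relb*. These are sums over cells of 1 library and carry no test.

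**Figure D3:**
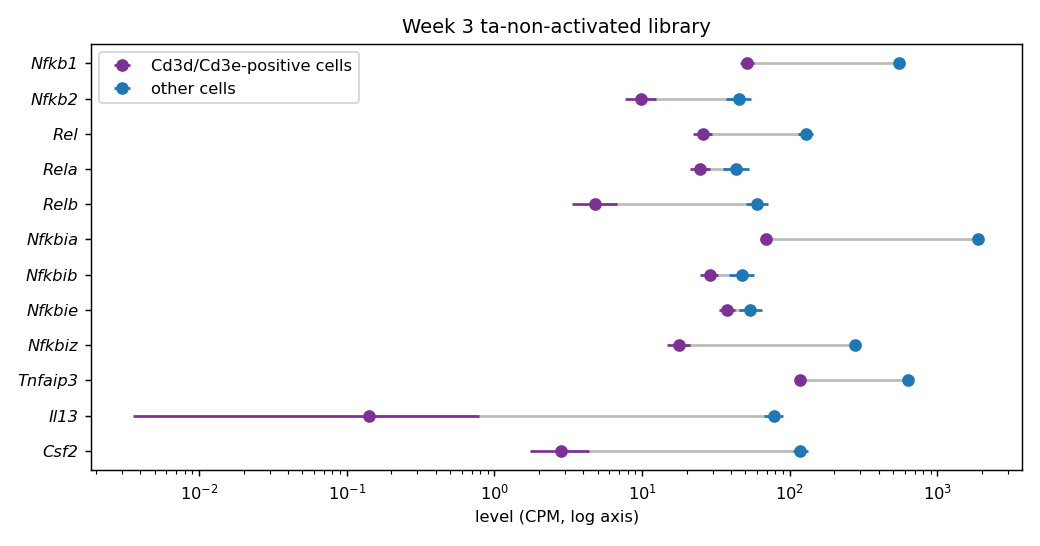
Level (CPM, log axis) of the members, *Il13* and *Csf2* in the 850 Cd3d/Cd3e-positive cells and the 751 other cells of the fresh week 3 library, with exact Poisson 95% intervals. The gap is widest for *Il13* and *Csf2*, wide for *Nfkbia* at 27.4-fold, and narrow for *Rela*, *Nfkbib* and *Nfkbie*. The Cd3d/Cd3e-positive cells held only 1 UMI of *Il13* and 20 of *Csf2*. The 95% intervals of these ratios are therefore wide, 77.1 to 3927 for *Il13* and 26.5 to 65.6 for *Csf2*.

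The effect of the culture is the comparison with more than 1 library a group, ta-activated against ta-non-activated, 2 against 2. None of the members differed beyond the spread between libraries. In the quasi-likelihood test of edgeR, adjusted by Benjamini-Hochberg over 12643 genes, 0 of 10 members and 0 genes in all (0%) passed an adjusted p of 0.05, with 0 members and 2120 genes (16.8%) at an unadjusted p under 0.05. All 10 members passed the filter on low counts. DESeq2 called 1020 of 13074 genes and 0 of the members. The median log2 change of the members was -0.32, beside -0.02 over all genes tested. The member of lowest adjusted p was *Tnfaip3*, with a log2 change of -1.70 (SE 0.90, edgeR adjusted p = 0.396). Log2 changes were -0.75 (SE 0.47) for *Nfkbie*, -0.62 (SE 0.78) for *Nfkbib*, -0.51 (SE 0.59) for *Nfkbiz*, -0.45 (SE 0.42) for *Nfkb1*, -0.20 (SE 0.51) for *Rel* and -0.20 (SE 0.59) for *Nfkbia*. *Rela* had 0.44 (SE 0.41), and *Relb* and *Nfkb2* had 0.03 each (SE 0.96 and 1.04). The smallest edgeR adjusted p of any gene was 0.243, and *Fos*, at a log2 change of -7.41, had 0.299. With errors of this size a 2-fold change of any member in either direction was not detectable. The count of 0 of 10 thus does not show that the members were unchanged. Without the Cd3d/Cd3e-positive cells the changes of *Tnfaip3*, *Nfkbiz*, *Nfkb1*, *Nfkbia*, *Rel* and *Nfkbie* were -3.05, -2.05, -1.39, -1.28, -1.07 and -1.02, the members' median was -1.04, and 0 members and 0 genes passed. Cycling cells made up 50.6% and 47.9% of the cultured libraries of weeks 2 and 3 and 22.6% and 15.7% of the fresh ones. Without them the members' median was -0.54 and 0 members passed. The cycling gate was not scaled to the depth of a cell. The fresh week 3 library had 11384 UMIs of the cell cycle list, and 299 without the Cd3d/Cd3e-positive cells. There, removing cycling cells thus also removed some of the Cd3d/Cd3e-positive ones. The log2 change of *Tnfaip3* was -2.46 without the fresh week 2 library and 0.16 without the fresh week 3 one. Each of these fits had 1 fresh library and kept the Cd3d/Cd3e-positive cells.

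**Figure D4:**
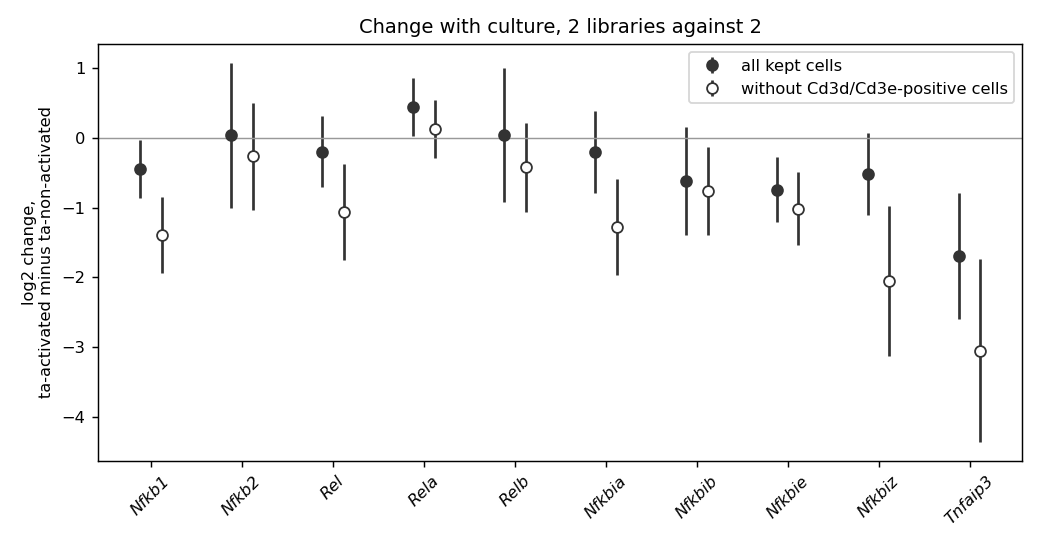
Log2 change of each member, ta-activated minus ta-non-activated, from edgeR's fit on 2 libraries against 2, with bars of 1 SE, for all kept cells (filled) and without the Cd3d/Cd3e-positive cells (open). No member passed the adjusted threshold in either, and 9 of 10 open points lie below 0.

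The fresh libraries differed from each other as given above, so each week was also read on its own, 1 library against 1 with no test. In week 2, 5 members were at least 2-fold lower after culture (*Nfkb2*, *Relb*, *Nfkbia*, *Nfkbib* and *Nfkbie*) and 0 higher, beside 12.2% and 13.1% of 5136 genes. The ratios of ta-activated to ta-non-activated were 0.311 (95% interval 0.294 to 0.329) for *Nfkb2*, 0.354 for *Relb*, 0.369 for *Nfkbib*, 0.431 for *Nfkbie* and 0.448 for *Nfkbia*, while *Rela*, *Nfkbiz* and *Tnfaip3* had 1.01, 1.100 and 1.103. In week 3, 4 members were at least 2-fold higher after culture (*Nfkb2*, *Rela*, *Relb* and *Nfkbib*) and 1 lower (*Tnfaip3*), beside 18% and 15.1% of 5578 genes. Without the Cd3d/Cd3e-positive cells 1 was higher (*Nfkb2*, ratio 2.43) and 4 were lower in week 3, beside 18.8% and 9.86% of genes. Those 4 were *Tnfaip3* at 0.0795 (95% interval 0.0747 to 0.0845), *Nfkbiz* at 0.178, *Nfkb1* at 0.3597 and *Nfkbia* at 0.456. *Nfkbie* was below 1 in both weeks with all kept cells, at 0.431 and 0.821. It stayed so with the Cd3d/Cd3e-positive cells left out, at 0.419 and 0.633. *Nfkbia*, *Nfkb1* and *Rel* also had ratios below 1 in both weeks once these cells were left out. Those ratios were 0.443 and 0.456 for *Nfkbia*, 0.555 and 0.3597 for *Nfkb1*, and 0.553 and 0.511 for *Rel*. The immediate early and stress genes moved with the week 3 values, from 13104 CPM in those fresh cells to 2353 CPM in the cultured ones, and their part was not tested.

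The rest of the pathway was read from the same edgeR test. No gene passed it among 18 receptor and adaptor genes, 12 kinase genes, 20 other regulators, 26 targets or 17 immediate early and stress genes, and 4, 1, 4, 4 and 7 of them had an unadjusted p under 0.05, beside 16.8% of all genes tested. The first 4 of these counts lie near that share or below it. No gene of the lists passed without the Cd3d/Cd3e-positive cells either, and the counts were 2, 0, 2, 5 and 7, beside 11.97% of all genes. The median log2 changes of these lists were 0.33, 0.39, 0.41, -0.39 and -1.78, and -0.05, 0.08, 0.07, -0.56 and -2.39 without those cells. Upstream, the receptor *Il1rl1* itself was at 791 CPM in the naïve library and 56.3, 82.9, 46.7 and 121 CPM in the others, fresh first, and 327 CPM in the fresh week 3 library without the Cd3d/Cd3e-positive cells. Among costimulatory receptors that feed NF-κB, *Tnfrsf18* (GITR) and *Tnfrsf9* (4-1BB) had log2 changes of 1.76 and 3.35 (edgeR adjusted p = 0.252 and 0.243), and the adaptor *Traf1* had -0.21. Both receptors were higher in each cultured library than in each fresh one, at 195 and 97.9 CPM against 18.5 and 7.03 CPM for *Tnfrsf9*. The log2 changes of the receptors without the Cd3d/Cd3e-positive cells were 0.83 and 2.95, and the fresh week 3 level of *Tnfrsf9* was 14.9 CPM. Of the kinase genes, *Ikbkb*, a catalytic subunit of the IκB kinase, had -0.42, and *Tab2*, *Map3k8* and *Tbk1* had 1.15, 0.64 and 0.57. Of the other regulators, *Nfkbid*, a nuclear IκB like *Nfkbiz*, had -1.69 and was highest in the naïve library, at 376 CPM against 66.8 CPM in the fresh week 3 library and less in the other 3. Its change was -2.99 and its fresh week 3 level 184 CPM when those cells were left out. *Tax1bp1*, *Cyld* and *Birc3* had 0.90, 0.56 and 0.09. Of the targets, *Il13*, *Il5* and *Gadd45b* had -0.42, 0.60 and -1.09. The target *Il9*, a growth factor gene of ILC2s, had no UMI in the fresh week 3 library (upper 95% bound 0.393 CPM) and 12576 CPM in week 2. Of the stress genes *Fos* had -7.41, *Junb* -1.53, *Jund* 0.11 and *Hsp90aa1* -1.53. The receptor *Il1rl1* had a log2 change of 0.17 with all kept cells and of -1.34 without the Cd3d/Cd3e-positive ones. The removal of those cells also turned the sign for *Map3k8* (-0.34), *Birc3* (-0.58) and *Jund* (-0.33), and gave -2.62 for *Gadd45b* and -2.39 for *Junb*.

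Whether the members went with the cytokines from cell to cell was read within each library, after each cell had been thinned to 2000 UMIs and shallower cells left out, as Spearman's rho with *Il13* or *Csf2*. These values describe cells that share a library and a pool of mice, and most were weak. *Nfkbia* had the highest rho, a measure that also depends on how many cells hold a UMI of the gene. In the fresh week 2 library that was 1199 of 1809 thinned cells for *Nfkbia* and 104 for *Tnfaip3*. The rho of *Nfkbia* with *Il13* was 0.288 over 1809 cells of the fresh week 2 library, 0.2501 and 0.125 over 2822 and 3714 cells of the cultured ones, and 0.0988 over 6147 naïve cells. With *Csf2* it was 0.254 and 0.308 in the fresh libraries, 0.202 and 0.148 in the cultured ones and 0.183 in the naïve one. In each of these 9 cases *Nfkbia* had a higher rho than every other member. This held in 8 of 9 cases with another random draw of UMIs and in 5 of 9 without thinning, where *Nfkb1*, *Tnfaip3* or *Nfkbiz* was higher in the rest. The fresh week 3 value rested on 77 cells with a *Csf2* UMI and was 0.238 without the Cd3d/Cd3e-positive cells, and *Nfkbia* stayed between 0.1002 and 0.275 with *Il13*. *Il13* was seen in too few cells of the fresh week 3 library (under 50) to be used there. For scale, the rho of *Il13* with *Csf2* themselves was 0.4697 in the fresh week 2 library and 0.127, 0.188 and 0.191 in the naïve and cultured ones.

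The number of members with a rho of at least 0.1 was read against the share of all genes that reached it. With *Il13* this was 0 of 10 in the naïve library (0.118% of genes), 4 of 10 in the fresh week 2 library (1.62%), and 2 and 1 of 10 in the cultured libraries of weeks 2 and 3 (1.9% and 0.999%). With *Csf2* it was 3 of 10 in the naïve library (0.312%), 6 and 5 of 10 in the fresh libraries (1.2% and 3.5%), and 2 and 1 of 10 in the cultured ones (0.465% and 0.185%). The counts depended on the random draw. With another draw the fresh week 2 library had 3 of 10 with *Csf2* and 3 of 10 with *Il13* (1.13% and 1.54% of genes). Without the Cd3d/Cd3e-positive cells it had 4 and 2 (0.908% and 1.66% of genes). In the fresh week 3 library 5 of the 9 members measured reached 0.1 with *Csf2* without those cells (3.25% of genes). The median rho of the members lay between 0.034 and 0.089 with *Il13* and between 0.044 and 0.122 with *Csf2*. *Tnfaip3* reached 0.1605 with *Il13* and 0.1604 with *Csf2* in the cultured week 2 library, and 0.221 with *Csf2* in the fresh week 3 one (0.1505 without the Cd3d/Cd3e-positive cells). *Nfkb2* and *Nfkbib*, whose levels were high in the fresh week 2 library, had a rho of 0.127 and 0.148 with *Il13* there and of at most 0.0726 and 0.0488 in the other 3. The removal of the Cd3d/Cd3e-positive cells from the fresh week 2 library, 1.10% of its cells, with a new draw moved the former to 0.0521 and left the latter at 0.134. *Nfkb2* had a higher level still in the cultured week 3 library, at 110.3 CPM, where its rho with *Il13* was 0.0268. *Rela* lay between -0.0249 and 0.0221 in every library with either cytokine. Only 142 of 1809 thinned cells of the fresh week 2 library and 531 of 6147 naïve ones held a UMI of it. A rho also depends on how many cells hold a UMI, and the shares of all genes were not matched for this. Few such cells did not always go with a rho near 0. In the cultured week 2 library *Tnfaip3*, with a UMI in 128 of 2822 thinned cells, had 0.1605 with *Il13*. *Rela*, with a UMI in 219 of them, had -0.0249. The part of detection in the values of *Rela* was not tested.

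**Figure D5:**
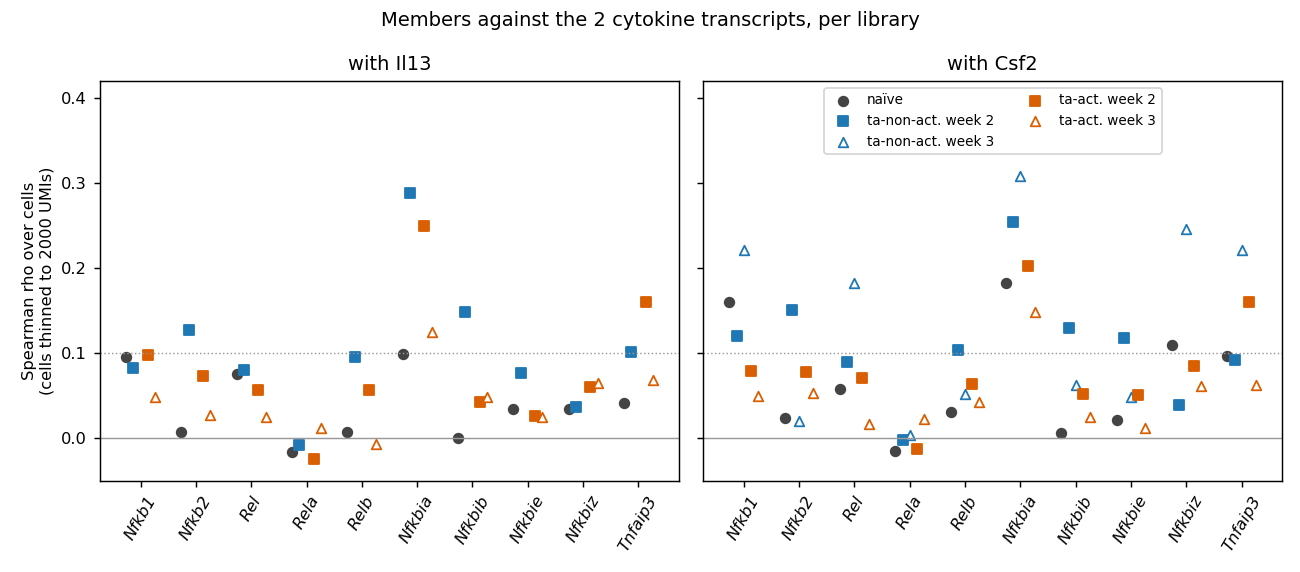
Spearman's rho of each member with *Il13* (left) and *Csf2* (right) over the cells of each library thinned to 2000 UMIs. The dotted line marks 0.1, *Nfkbia* is the highest member in each library on both sides, *Rela* lies at or near 0, and the fresh week 3 library has no value with *Il13*.

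The same relation can be read as levels, in cells with more UMIs of the cytokine than the library's median against the remaining cells. In the cultured week 2 library *Nfkbia* was at 425 CPM (95% interval 399.7 to 451) in the 1246 cells above the median of *Il13* and at 166 (152 to 181) CPM in the other 1576. In the fresh week 2 library it was at 975 CPM (95% interval 929 to 1023) in 859 cells and 565 (532 to 600.1) CPM in 950, and in the cultured week 3 library the ratio was 1.24. Of the naïve cells, the 273 with an *Il13* UMI had 2223 CPM (95% interval 2100.1 to 2352) and the 5874 without one 1424 (1402 to 1446) CPM, so the gap was present where *Il13* was scarce. *Tnfaip3* had ratios of 3.32, 1.59, 1.97 and 1.17 for *Il13* in the cultured week 2, cultured week 3, fresh week 2 and naïve libraries. Those of *Nfkbia* were 2.56, 1.24, 1.72 and 1.56, so with all kept cells *Tnfaip3* had the larger ratio in each of these tumour libraries. Without the Cd3d/Cd3e-positive cells, with a new draw, the fresh week 2 ratios were 1.57 for *Tnfaip3* and 1.68 for *Nfkbia*. *Tnfaip3* thus no longer had the larger ratio there, while the cultured week 2 ratios were 3.27 and 2.76. With all kept cells *Rela* had 0.775, 1.099, 0.862 and 0.753 in the order of libraries given for *Tnfaip3*. Over the 10 members the median ratio lay between 1.15 and 1.55 for *Il13*, where all genes had medians between 0.883 and 0.972, and between 1.22 and 2.72 for *Csf2*, where all genes had 0.779 to 0.987. The upper end of 2.72 belonged to the fresh week 3 library and was 1.57 without the Cd3d/Cd3e-positive cells, where all genes had 0.955. The *Csf2* ratio of *Nfkbia* in the fresh week 3 library was 4.36 with all kept cells and 1.97 without the Cd3d/Cd3e-positive ones, so part of it went with those cells.

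Among themselves most members were nearest to *Nfkbia*, several of them weakly. Of the 4816 genes with UMIs in at least 50 thinned cells of every library, *Nfkbia* had the highest mean rho over the 5 libraries with *Nfkb2*, *Rel*, *Relb*, *Nfkbie*, *Nfkbiz* and *Tnfaip3*, and the second highest with *Nfkb1*. That mean rho was 0.261 (range over libraries 0.131 to 0.477) for *Tnfaip3*, 0.216 (range over libraries 0.0572 to 0.505) for *Nfkb1* and 0.203 (range over libraries 0.0121 to 0.464) for *Nfkbiz*, and 0.0648 for *Nfkbie*. The exceptions were *Nfkbib*, nearest to *Gadd45b* at 0.0555 with *Nfkbia* in rank 3 at 0.0511, and *Rela*. Over the 2738 genes that could be used without the Cd3d/Cd3e-positive cells, *Nfkbia* had the highest mean rho with *Rel*, *Relb*, *Nfkbiz* and *Tnfaip3*, the second highest with *Nfkb1* and *Nfkbie*, and was not among the 3 highest for *Nfkb2*, while *Rela* was seen in too few of the remaining fresh week 3 cells. In naïve cells the rho of *Nfkb1* with *Tnfaip3* was 0.4096 and with *Nfkbia* 0.361. In the fresh week 3 library the rho of *Nfkb1* with *Nfkbia* was 0.505, and 0.317 without the Cd3d/Cd3e-positive cells. Outside the members, *Nfkbia* was most like *Gadd45b*, one of the targets listed above, with a mean rho of 0.369 (range over libraries 0.235 to 0.682), followed by *Junb*, an AP-1 subunit gene, at 0.335 (range over libraries 0.263 to 0.447) and the protease gene *Furin* at 0.281 (range over libraries 0.119 to 0.6304). *Nfkb1* was most like *Rora*, a transcription factor gene of the ILC2 lineage, at 0.233 (range over libraries -0.00499 to 0.556). When the Cd3d/Cd3e-positive cells were left out, the means of *Nfkbia* were 0.322 with *Gadd45b*, 0.379 with *Junb*, which then ranked first, and 0.225 with *Furin*, and that of *Nfkb1* with *Rora* was 0.202. *Rela*, seen in few thinned cells, had no close partner, its highest mean rho being 0.0453 with *Kdm6b*. The part of the immediate early and stress genes in the relation of the members to the cytokines was not tested.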

How the data were processed

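The authors deposited raw UMI counts (reads collapsed by unique molecular identifier) for each gene and barcode for 5 libraries. Per the file headers they were made with Cell Ranger 6.0.0 (naïve) and 3.0.2 (the other 4), and the submitters' processing notes name Cell Ranger 3.0.2, Seurat 3 and the build GRCm38. The annotation used for counting is not given in the sources used here. The 10 members and the gene lists were chosen with earlier results of these data known.

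Of 18628 barcodes, 16530 with at least 200 genes and less than 5% of UMIs in 13 mitochondrial genes were kept. Doublets were not called. The sort had gated on pulse width, and leaving out the 6% of barcodes with the most UMIs in each library was an alternative. Levels are UMIs of the summed counts as CPM, with exact Poisson 95% intervals that cover counting error only. Ratios between single libraries used genes with a mean of at least 20 CPM in the pair and a limit of 2-fold. Per-cell correlations used cells thinned at random to 2000 UMIs and pairs of genes with a UMI in at least 50 cells.

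Groups of 2 libraries were compared with edgeR 4.0.16 (filterByExpr, TMM, quasi-likelihood F test) in R 4.3.3 at an adjusted p of 0.05, after a test on simulated data. Week and replicate number are the same thing, so replicates differ in the week after tumour injection as well as in the pool of mice. The naïve group has 1 library and no test. The deviations of same-week libraries correlated at -0.06. Alternatives were DESeq2 1.42.0, the week as a block, no filter on low counts, a fit that held the naïve library too, no filter on barcodes, a mitochondrial limit of 10%, and fits without Cd3d/Cd3e-positive cells, without cycling cells (at least 2 UMIs of a cell cycle list), and without each library. Thinning to 4000 UMIs, another seed, no thinning and Pearson's r were tried for correlations, and means over cells for levels. The lists and the genes most alike were also read without the Cd3d/Cd3e-positive cells, an alternative chosen after the data had been seen. Promoters are RefSeq starts on GRCm38.p6, intron lengths GENCODE M21. Genes other than members were named by a rule: the 4 of highest mean CPM in each list, and the 3 with the highest mean rho for each member, of which those shown are the closest. Python 3.11.15, numpy 2.4.6, scipy 1.17.1, pandas 2.3.3 and matplotlib 3.10.9 were used.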

Additional observations from a re-analysis of the deposited data

Results flagged for a closer look

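In 8 of the 10 members the log2 ratio of cultured to fresh ILC2s had opposite signs in weeks 2 and 3. With 1 library on each side the difference between the weeks was not tested, and 10 members were looked at with and without the Cd3d/Cd3e-positive cells. The share of all genes with opposite signs was not counted, so the number is not read as a trait of the members. The count of 8 fell to 5 with means over cells, without cycling cells or without the Cd3d/Cd3e-positive cells, and to 6 without the 6% of barcodes with the most UMIs. *Nfkb2*, *Relb*, *Nfkbib* and *Nfkbiz* had opposite signs under each of these, and with means over cells *Nfkb1*, *Rel* and *Tnfaip3* had ratios below 1 in both weeks.

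Of the members with opposite signs, 6 had a lower ratio in week 2 than in week 3. The difference, week 2 minus week 3 on the log2 scale, was -4.25 for *Nfkb2* (-1.69 and 2.57 in the weeks), -3.84 for *Relb* (-1.50 and 2.34), -2.56 for *Nfkbib* (-1.44 and 1.12), -1.88 for *Nfkbia* (-1.16 and 0.72), -1.19 for *Rel* (-0.84 and 0.36) and -1.02 for *Nfkb1* (-0.85 and 0.17). Without the Cd3d/Cd3e-positive cells opposite signs held for 3 of them, with differences of -3.01 for *Nfkb2*, -2.16 for *Relb* and -2.07 for *Nfkbib*. For *Nfkbia*, *Rel* and *Nfkb1* the ratio was then below 1 in both weeks. With all kept cells *Rela* and *Nfkbie*, each with the same sign in both weeks, also had a lower ratio in week 2. Their ratios were 1.01 and 0.431 in week 2, and 2.07 and 0.821 in week 3.

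The 2 members that differed the other way were *Tnfaip3*, with a difference of 2.43 (0.14 and -2.29), and *Nfkbiz*, with 0.87 (0.14 and -0.74). Without the Cd3d/Cd3e-positive cells these differences were 3.77 and 2.64. Their week 2 ratios lay near 1 and their week 3 ratios below it, as did the summed immediate early and stress genes, at 2380 over 2561 CPM in week 2 and 2353 over 13104 CPM in week 3 without those cells. The part of those genes in the result was not tested.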

How the results depend on the processing

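The count of genes called between ta-activated and ta-non-activated libraries was 0 with edgeR and depended on the fit. It was 1020 with DESeq2 and ranged from 0 to 1646 with each library left out in turn, with 1646 without the fresh week 2 library and 513 without the fresh week 3 library. With 1 library left in an arm, that library is assumed to vary like the others. The count of members called ranged from 0 to 1 over the same omissions (*Tnfaip3*, without the fresh week 2 library) and was 0 under every other alternative. With the week as a replicate block, 0 genes and 0 members were called. The deviations of same-week libraries correlated at -0.06 over all kept cells. With 2 libraries a group this value does not decide whether the week had an effect, which was not tested. The block with the Cd3d/Cd3e-positive cells left out, an alternative chosen after the data had been seen, called 66 of 12591 genes and 0 members. All 10 log2 changes of members kept their sign with DESeq2, the block, all genes, and all 5 libraries in 1 fit. Without the Cd3d/Cd3e-positive cells 8 of 10 did, and *Relb* and *Nfkb2*, near 0 before, turned negative. With a library left out, 6 of 10 kept their sign without the fresh week 3 library and 8 of 10 in each other omission.

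Of 40 pairs of a member and a library, 7 had a rho of at least 0.1 with *Il13*, 14 after thinning to 4000 UMIs and 27 without thinning. With *Csf2*, 17 of 50 had it, and 35 without thinning. The share of all genes rose as well. With *Il13* it was 0.118% to 1.9% over the libraries, 0.342% to 2.65% at 4000 UMIs and 0.527% to 20.6% without thinning. With *Csf2* it was 0.185% to 3.5%, and 0.744% to 17.8% without thinning. The other alternatives gave 6 to 10 pairs with *Il13* and 12 to 19 with *Csf2*, beside 0.129% to 3.41% and 0.16% to 3.54% of genes. Without thinning, depth differs between cells, and a count near 0.1 depended on the number of UMIs kept and on the random draw, the fresh week 2 count with *Csf2* going from 6 to 3 with another draw. The week 3 fresh library has 9394957 UMIs, the fewest, and its *Csf2* values rest on 77 cells.

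Of the 50 levels of a member in a library, 36 left their counting interval with means over cells and 36 without cycling cells. A move of more than 1.5-fold occurred for 7 with means over cells (up to 1.74-fold), 2 without cycling cells (*Nfkbia* and *Nfkbiz*, up to 1.53-fold) and 7 without the Cd3d/Cd3e-positive cells (up to 3.61-fold), each of them in the fresh week 3 library, and for 0 under the other alternatives.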
